A study of Homo sapiens with 18 samples.

Results

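The probe sets described here are 793 exon-level features of 560 genes whose level, set against the mean of their gene, was higher after a phorbol ester in each of 3 human myeloid lines. They were taken from 175190 probe sets in 11982 genes. Each of these had exactly 1 gene symbol, a mean over the 18 arrays above 5.17 on the log2 scale, and at least 5 such probe sets in its gene. For each line, the change of the probe set (mean with the phorbol ester minus mean with vehicle) was set against the mean of the same change over all kept probe sets of the same gene. Members are those for which this difference was at least 1 log2 unit, a 2-fold ratio, in HL60, in THP-1 and in U937. Members make up 0.453% of the probe sets tested, and 4.67% of the genes tested hold at least 1. Since these values chose the members, the change with the phorbol ester is given throughout as a description, without a test.

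The lines are established leukaemia and lymphoma lines. HL60 comes from an acute promyelocytic or myeloblastic leukaemia, THP-1 from an acute monocytic leukaemia and U937 from a histiocytic lymphoma with monocytic features. All were kept in RPMI1640 with fetal calf serum and received 30 nM phorbol 12-myristate 13-acetate (PMA) or its vehicle dimethyl sulfoxide (DMSO) for 3 days. Total RNA was hybridised to Affymetrix human exon 1.0 ST arrays. The 6 groups (3 lines, 2 treatments) hold 3 arrays each, numbered alike, and the labels do not say whether these came from separate cultures. The p-values below therefore reflect no more than the spread between these arrays. The RNA is from whole cultures, in which fewer cells of a type and less RNA per cell cannot be told apart.

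PMA mimics diacylglycerol and activates protein kinase C, and in these lines it is a standard way to stop division and start a macrophage-like programme. Genes of DNA replication and mitosis are known to be shut down as cells leave the cycle, while genes of adhesion, secretion and the AP-1 and EGR transcription factors are switched on. An exon array reads each gene in many short stretches, its probe sets. Where a gene has more than 1 promoter, alternative exons or alternative ends, its stretches need not move together. Whether any of these applies to a member was not tested, nor was how well each probe set follows its RNA.

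As a check of the labelled cell type, all 9 measured myeloid markers had a mean above 5.17 (6.40 to 11.33), against 1 of 7 markers of T and NK cells. Of the other markers, 3 of 4 of B cells, 4 of 5 of erythroid cells and megakaryocytes, and 4 of 6 of epithelial cells and fibroblasts lay above it, none over 6.95. Not every myeloid marker was above 5.17 in every group. MPO was 12.6 in HL60 with DMSO but 5.05 in THP-1 with PMA, and FCGR1A was 4.05 in HL60 with PMA. The U937 PMA 2 array stood apart, with a median of 6.18 and 83228 distinct values, where the other 17 arrays held 214471 to 220516. Without the U937 DMSO 2 and PMA 2 arrays the rule found 798 members, 721 of them among the 793.

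For the place of a probe set in its gene, probe-set IDs were read in order and turned by the strand of the gene in RefSeq (GRCh38.p14). The sequences just upstream of 5 member genes are shown for their start regions. In MYB, CDCA7 and HELLS the member is the 5′-most kept probe set, while in MMP7 and EMP1 the members lie further inside the gene. The sequences are the 200 bases before the RefSeq gene start, 5′ to 3′ on the strand of the gene. The first is that of MYB, a transcription factor of blood progenitors, whose 5′-most kept probe set had the largest difference among members of genes that were lower with PMA (chr6:135181108-135181307, plus strand). Those of CDCA7 (chr2:173354672-173354871, plus strand) and HELLS (chr10:94545588-94545787, plus strand), which act together in chromatin remodelling and DNA methylation, were chosen for a match to the motif of the E2F cell-cycle factors. Those of the matrix protease MMP7 (chr11:102530748-102530947, minus strand) and the membrane protein EMP1 (chr12:13196526-13196725, plus strand), both higher with PMA, were chosen for a match to the phorbol ester response element bound by AP-1. Capitals mark the matches.
MYB: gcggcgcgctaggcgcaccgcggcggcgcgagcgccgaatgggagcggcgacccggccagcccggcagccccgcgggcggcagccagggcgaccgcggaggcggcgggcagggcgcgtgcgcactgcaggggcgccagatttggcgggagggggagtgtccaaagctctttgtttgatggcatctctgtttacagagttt
CDCA7: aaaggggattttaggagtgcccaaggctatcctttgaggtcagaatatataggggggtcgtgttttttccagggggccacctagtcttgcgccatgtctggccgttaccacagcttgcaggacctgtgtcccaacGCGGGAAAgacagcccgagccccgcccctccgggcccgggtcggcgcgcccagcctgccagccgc
HELLS: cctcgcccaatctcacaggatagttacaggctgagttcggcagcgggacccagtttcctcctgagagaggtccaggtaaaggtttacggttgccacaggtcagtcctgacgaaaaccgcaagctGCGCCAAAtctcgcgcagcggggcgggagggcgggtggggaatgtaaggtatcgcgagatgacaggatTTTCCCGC
MMP7: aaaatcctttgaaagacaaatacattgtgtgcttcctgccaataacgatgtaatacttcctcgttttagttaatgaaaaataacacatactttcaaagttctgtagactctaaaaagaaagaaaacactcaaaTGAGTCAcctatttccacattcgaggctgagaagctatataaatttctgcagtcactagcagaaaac
EMP1: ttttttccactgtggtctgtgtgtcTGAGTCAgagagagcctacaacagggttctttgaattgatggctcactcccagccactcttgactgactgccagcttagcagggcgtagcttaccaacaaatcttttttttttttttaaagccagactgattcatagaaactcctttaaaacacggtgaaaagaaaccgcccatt

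The motifs searched on both strands were TGACTCA for AP-1, and TTTCCCGC, TTTCGCGC, TTTGCCGC and TTTGGCGC for E2F. Of 27305 RefSeq windows of this length, none of them on chr8, 3.48% held the AP-1 motif and 2.32% an E2F motif. Among 9753 genes tested, the shares were 2.09% and 3.36%. Of 398 member genes that were lower with PMA, 40 (10.1%) held an E2F motif and 3 (0.754%) the AP-1 motif. The 256 genes that were lower by at least 1 log2 unit in each line without holding a member gave 7.42% and 0%. Of 60 member genes that were higher with PMA, 4 (6.67%) held the AP-1 motif and none an E2F motif. No set of higher genes without a member was taken, so these shares have no like background. The median GC content of the windows was 66.5% in lower member genes, 66.5% in all tested genes and 61.8% in higher member genes. A match says only that these letters stand in the window.

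The 793 members fell into a large and a small class by the direction of their gene. In 628 members of 466 genes (79.2%), the gene mean was lower with PMA in all 3 lines, and these are called members of falling genes below. In 157 members of 86 genes (19.8%), the gene mean was higher in all 3 lines (rising genes). In the other 8, among them PADI4, which citrullinates histones, the gene mean went different ways in different lines. These classes were formed after the values had been seen.

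In falling genes the typical member held its level while the gene mean dropped. The median member was 7.92 with DMSO and 7.94 with PMA, and its median change was 0.21 in HL60, 0.22 in THP-1 and 0.02 in U937. The gene means changed by a median of -1.53, -1.31 and -1.57. Over the means of the 6 groups, the median range was 0.65 for these members and 2.35 for their gene means. It was 1.27 for all tested probe sets and 0.76 for 5′-most kept probe sets that are not members. Of the 628, 575 (91.6%) moved by less than 1 log2 unit in every line, and 328 by less than 0.5. Only 4 were lower by at least 1 in every line, 1 each in ATAD5, BLM, NEIL3 and BRCA1, all genes of DNA replication or repair.

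In rising genes the typical member was low with DMSO, with a median of 4.13, and stood at 8.74 with PMA. With DMSO 116 of the 157 lay under the level minimum of 5.17, so these passed it only through their PMA arrays, and the low start was largely set by the choice of members. The files used give no detection call, and the size of a difference that starts at such a level is uncertain. The median change was 4.72, 4.50 and 3.92 for the members and 2.78, 2.58 and 2.23 for their genes.

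**Figure D1:**
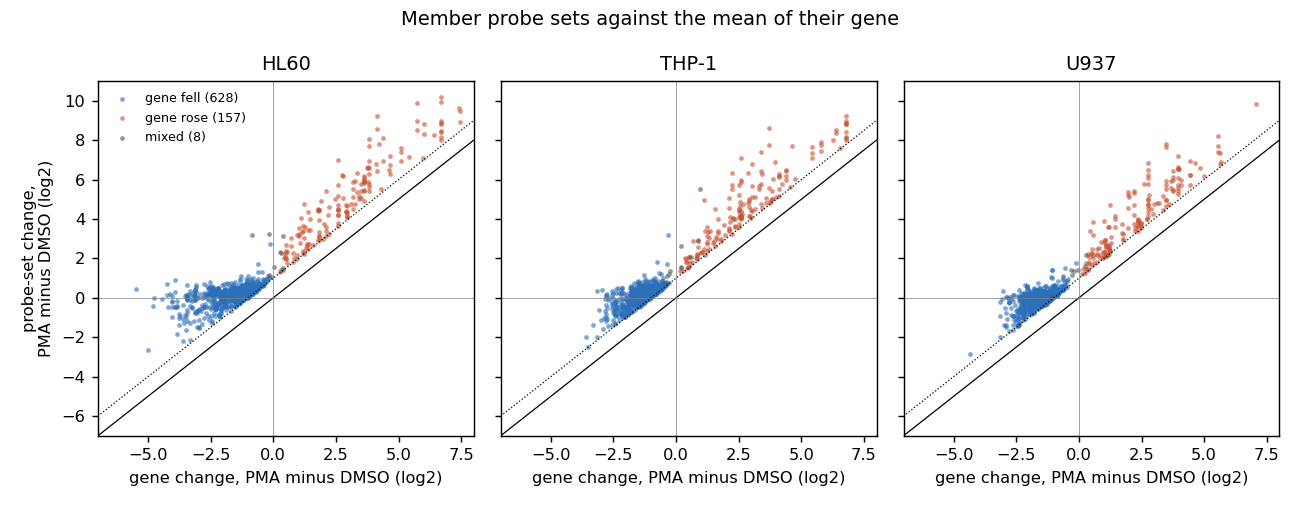
Change of each of the 793 members with PMA (vertical axis, log2) against the change of its gene mean (horizontal axis, log2), 1 panel per line, coloured by the direction of the gene. The solid line marks equal change and the dotted line the threshold of 1; most of the 628 points of falling genes (blue) lie near 0 on the vertical axis, and the 157 of rising genes (red) lie along the line and above it.

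The difference was largest in HL60 for 434 members, in U937 for 192 and in THP-1 for 167. Its median was 1.75 in HL60, 1.48 in THP-1 and 1.53 in U937, with a median SE of 0.33 in each line and maxima of 5.91, 4.94 and 4.31. The gap between the largest and smallest of the 3 lines was 0.61 in the median member, under 0.5 in 319 and over 2 in 23. In 657 of the 793 (82.8%), the splicing index, obtained on each array by subtracting the gene mean from the probe-set value, was higher on all 3 PMA arrays than on all 3 DMSO arrays in every line. The share is 1.44% over all tested probe sets, and the rule used this contrast. The probe-set values themselves were so separated in 160 members (20.2%). No share over all tested probe sets was taken, so nothing is read from this count. All 157 members of rising genes were higher by at least 1 in every line, as the rule requires where the gene mean rises.

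Just inside the threshold lay SEPTIN5 3936959 (smallest difference over the lines 1.0001), NSD2 2715087 (1.0011), HAL 3466728 (1.0017) and PSME3 3722157 (1.002). Just outside lay A2M 3443367 (0.99995), DCK 2730716 (0.99965), CD38 2719661 (0.99962) and MTMR11 2434181 (0.99724). CD38, MTMR11 and A2M each hold another probe set that is a member.

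MYB carried the largest difference in HL60. Its probe set 2926804, the 5′-most of 18 kept, read 8.11, 8.51 and 9.09 in HL60 with DMSO and 8.92, 9.22 and 8.87 with PMA. It read 8.58, 8.11 and 8.96 against 9.18, 8.67 and 8.93 in THP-1, and 8.47, 8.56 and 8.92 against 9.27, 9.02 and 8.66 in U937. The 2 treatments overlapped in all 3 lines. The MYB gene mean, in contrast, was 10.60, 11 and 10.68 in HL60 with DMSO and 5.18, 5.53 and 5.17 with PMA, with no overlap. The change was 0.44, 0.38 and 0.33 for the probe set and -5.47, -2.94 and -3.01 for the gene, a difference of 5.91, 3.32 and 3.34 (SE 0.40).

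KIF11, the kinesin that separates spindle poles in mitosis, showed the same shape. Its 5′-most probe set 3258176 of 22 lay between 8.06 and 8.82 on all 18 arrays. The gene mean was 8.51, 8.07 and 7.86 in HL60 with DMSO and 3.99, 3.86 and 4.24 with PMA, and the differences were 4.32, 2.65 and 2.80 (SE 0.38). CDCA7 2516033, also 5′-most, of 13, changed by -0.03, -0.01 and 0.05, where its gene changed by -4.77, -2.68 and -2.76. HELLS 3258912, the 5′-most of 19, changed by 0.69, 0.27 and 0.05 against -4.26, -2.26 and -2.91 for its gene. The 5′-most probe set of SASS6, which builds the centriole, and of NUCB2, which binds calcium, kept their levels likewise, with differences of 3.07, 2.77 and 2.71 and of 4.35, 2.60 and 3.01.

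**Figure D2:**
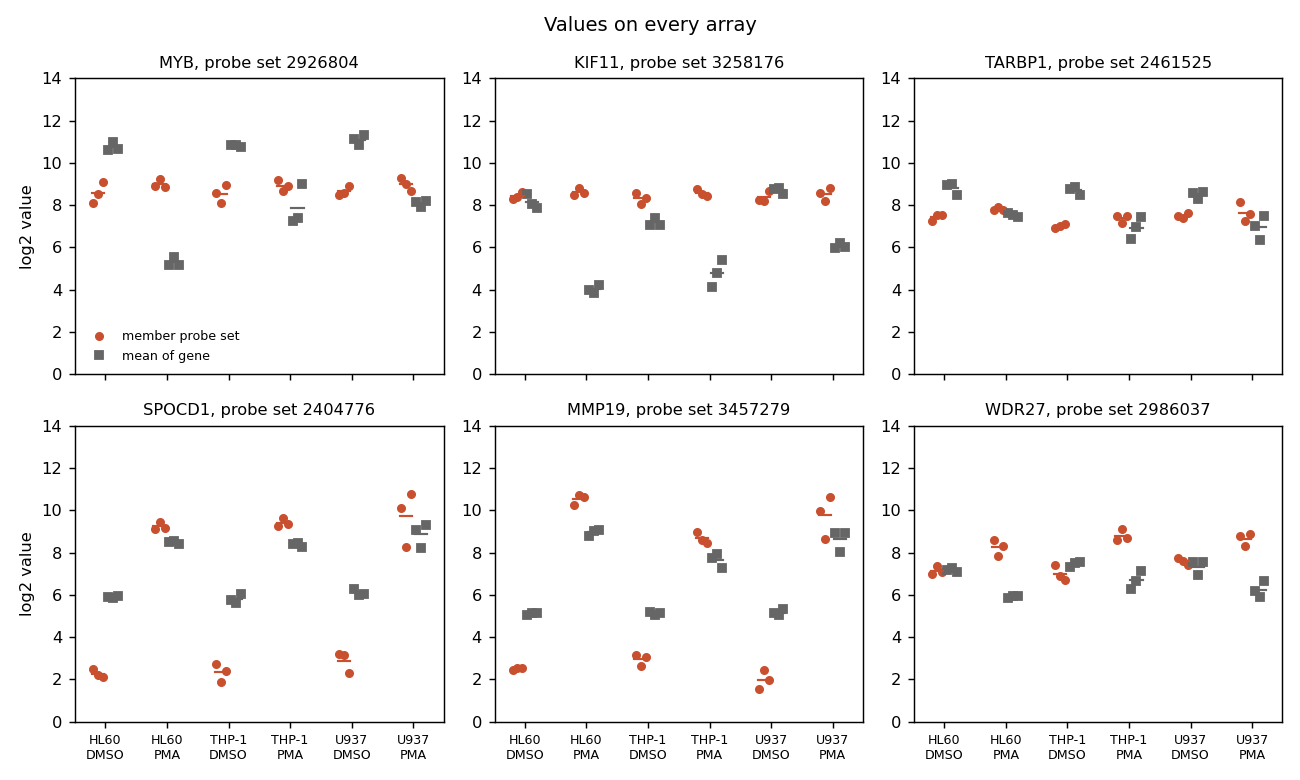
Values on every array (vertical axis, log2) of 6 member probe sets (circles) and of the mean of their gene (squares), by line and treatment; short lines are means of 3 arrays. In MYB, KIF11 and TARBP1 the probe set stays level while the gene drops, in SPOCD1 and MMP19 it starts low with DMSO and changes by more than the gene, and in WDR27 it rises while the gene drops.

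The members of falling genes were gathered at the 5′ side. Each gene was cut into 5 bins along its kept probe sets, bin 1 at the 5′ side, for the 535 of these members whose gene has a strand in the table. Of them 448 (83.7%) lay in bin 1, where 21.7% of all tested probe sets of falling genes lie. The 5′-most kept probe set itself was the member in 295 (55.1%), against 5.92%. The rule used neither ID order nor strand, and the pattern was seen on each strand by itself, where ID order runs the opposite way. On the plus strand 235 of 274 (85.8%) lay at the low-ID end and on the minus strand 213 of 261 (81.6%) at the high-ID end. Without the filter on level the share in bin 1 was 75.2%, and leaving out 1 array at a time gave 80.9% to 85.5%.

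Members of rising genes lay elsewhere. Of 95 with a strand, 8 (8.42%) lay in bin 1, where 22.2% of all tested probe sets of rising genes lie. Bins 3, 4 and 5, the last at the 3′ side, held 23 (24.2%), 20 (21.1%) and 33 (34.7%), against 18.7%, 18.5% and 23.0%. In genes higher by at least 1 in every line, 3.6% of bin 3 probe sets and 2.84% of bin 5 probe sets were members. The members of A2M and MMP19 have no strand in the table, and SPOCD1 alone gave 9 of the 95. The mirror class, 391 probe sets of 234 genes that stayed at least 1 below their gene in every line (0.223% of those tested), had 287 in rising genes. Of 202 of these with a strand, 125 (61.9%) lay in bin 1. At the 5′ side, then, lay probe sets that moved less than their gene both in falling and in rising genes.

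**Figure D3:**
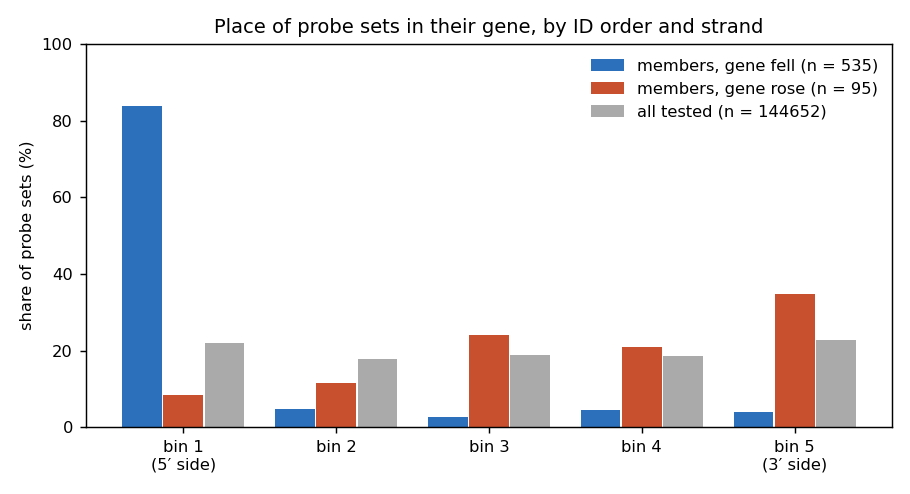
Share of probe sets (vertical axis, %) in each of 5 bins along the gene from the 5′ side to the 3′ side, for 535 members of falling genes, 95 members of rising genes and 144652 tested probe sets with a known strand. Bin 1 holds 83.7% of the members of falling genes, 8.42% of the members of rising genes and 22% of all probe sets.

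The same tilt appeared over all genes that moved by at least 1 in every line, members included, although PMA changes chose these genes as well. In the 491 genes with a strand whose mean was lower by at least 1 in every line, the 5′-most probe set had a median difference from its gene of 1.09 in HL60, 0.87 in THP-1 and 0.97 in U937. The second had 0.08, 0.08 and 0.14, and the 3′-most -0.10, 0.02 and -0.15. Of these 491 5′-most probe sets 186 (37.9%) were members, chosen for a difference of at least 1, and no median was taken without them. In 215 genes that were higher by at least 1, the 5′-most probe set had -1.04, -0.87 and -0.77. In 3609 genes that moved by less than 0.5, it had 0.08, 0.11 and 0.10.

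**Figure D4:**
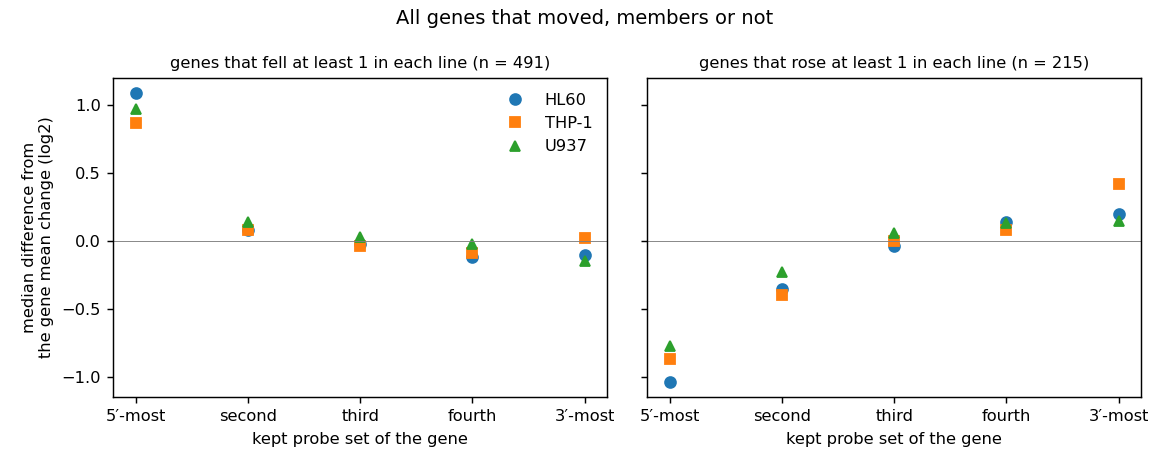
Median difference from the change of the gene mean (vertical axis, log2) for the 5′-most kept probe set, those at places 2 to 4 and the 3′-most, in 491 genes that were lower (left) and 215 genes that were higher (right) by at least 1 log2 unit with PMA in each line. Only the 5′-most point stands near 1 on the left, and the 5′-most and second points lie below 0 on the right.

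The untreated lines gave a comparison that the rule did not use, although the same DMSO arrays enter both. Between lines, too, members of falling genes stayed level where their gene differed. In 61 such members the gene mean differed by at least 1 between THP-1 and HL60 with DMSO, by a median of 1.17, and the probe set followed by a median of 0.27. It moved less than the gene in 59 of the 61 (96.7%). Between U937 and HL60 this held for 116 of 118 (98.3%), with medians of 1.28 and 0.32, and between U937 and THP-1 for 127 of 130 (97.7%), with 1.26 and 0.38. Over all tested probe sets of genes that differed as much, the shares were 46.8%, 48.8% and 46.5%. The 61, 118 and 130 members came from 49, 89 and 99 genes, so some share a gene. In each comparison all members of rising genes, 2, 9 and 12 of them in 2, 5 and 8 genes, moved further than their gene. Of the 157 members of that class 116 lay under 5.17 with DMSO. Among 5′-most probe sets that are not members, 83.6%, 86.2% and 84.7% moved less than the gene, and among the 3′-most 35.3%, 24.3% and 30.8%. These shares were computed after the values had been seen, and no test was made of them.

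**Figure D5:**
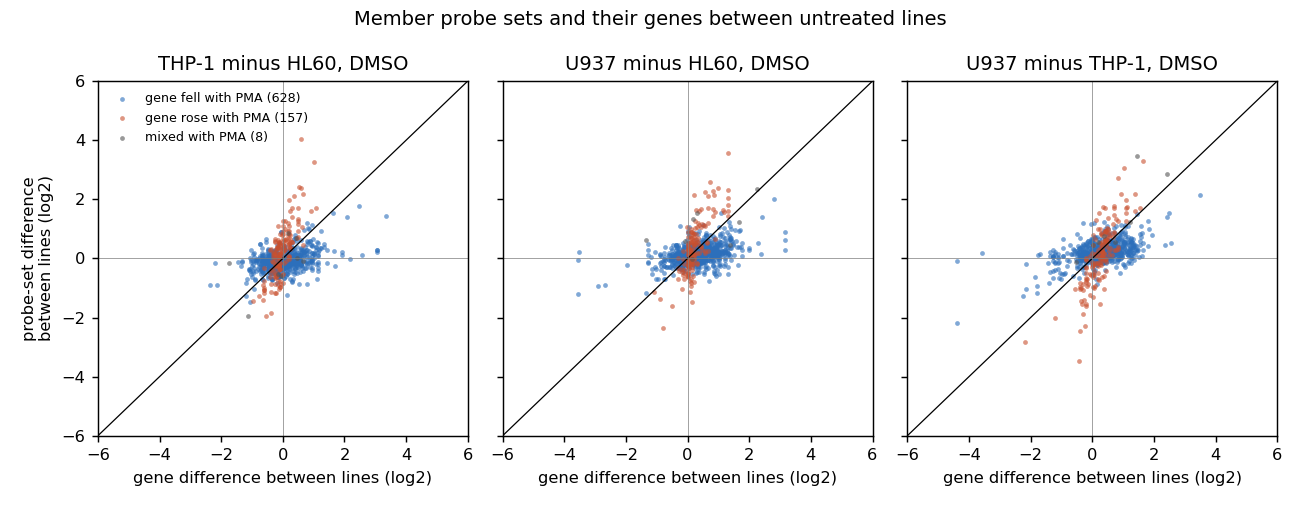
Difference between untreated lines of each of the 793 members (vertical axis, log2) against that of its gene mean (horizontal axis, log2), 1 panel per pair of lines; the line marks equal difference. The 628 members of falling genes (blue) spread mainly along the horizontal axis, and the 157 of rising genes (red) mainly along the vertical axis.

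Limma's test of the splicing index (adjusted p under 0.05 over all tested probe sets, difference at least 1) called 43 members between THP-1 and HL60 (5.42%), where 2.73% of all tested probe sets were called. Of these, 18 were higher and 25 lower in THP-1. It called 48 between U937 and HL60 (6.05%, against 2.63%), 19 higher and 29 lower in U937. Between U937 and THP-1 it called 54 (6.81%, against 2.49%), 28 higher and 26 lower in U937. In all, 101 members (12.7%) were called in at least 1 pair, against 5.15% of all tested probe sets and 21.2% (83 of 391) of the mirror class. In the falling-gene class 110 calls were made over the 3 pairs, and in all 110 the splicing index differed in the direction opposite to the gene mean, as it must where a probe set keeps its level. Over all tested probe sets 7429 of 13761 calls (54.0%) were opposite. In the rising-gene class 29 of 33 calls ran the same way as the gene. The counts leaned on single arrays. The U937 against HL60 count was 26 without U937 DMSO 1, 27 without U937 DMSO 2, 28 without HL60 DMSO 3 and 30 without HL60 DMSO 2, and the U937 against THP-1 count was 35 without U937 DMSO 2. With only the arrays of the 2 groups compared in the fit, the 3 counts were 27, 25 and 34.

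SESN3, a stress-induced sestrin, gave the largest difference between untreated lines. Its gene mean was 10.19, 10.22 and 10.66 in THP-1 with DMSO and 5.94, 5.88 and 6.08 in U937. Its probe set 3387287, second from the 5′ end of 12, read 8.57, 8.42 and 8.71 in THP-1 and 8.30, 8.14 and 8.97 in U937, and the lines overlapped. The splicing index was 4.30 ± 0.42 (SE) higher in U937 than in THP-1 (limma, adjusted p = 1.27e-05) and 3.50 ± 0.42 higher than in HL60 (limma, adjusted p = 0.000121).

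FLT3, the receptor tyrosine kinase of early progenitors, was near the bottom of the scale in U937, with a gene mean of 4.86, 4.34 and 4.68 with DMSO against 8.36, 8.49 and 7.82 in THP-1. Its probe set 3507243, the 5′-most of 24, read 9.38, 9.96 and 10.27 in U937 and 9.69, 9.62 and 9.72 in THP-1. The index was 3.79 ± 0.31 higher in U937 than in THP-1 (limma, adjusted p = 1.83e-06).

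PRKAR2B, a regulatory subunit of protein kinase A, holds 3 members in a row (3018378 to 3018380, at places 3 to 5 of 16). Its gene mean was 4.80, 4.91 and 5.76 in HL60 with DMSO and 8.25, 8.11 and 8.61 in U937, while 3018378 read 6.40, 6.43 and 6.90 and then 6.79, 6.51 and 7.30. The index differed by -2.88 ± 0.30 (limma, adjusted p = 2.9e-05). The ectoenzyme CD38 had a gene mean of 6.09, 6.58 and 7.23 in HL60 and 9.13, 8.91 and 9.56 in THP-1, and its probe set 2719663 read 10.09 to 10.80 and 10.39 to 10.72. Its index differed by -2.46 ± 0.25 (limma, adjusted p = 2.04e-05).

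Members of rising genes that were called between lines mostly differed in the direction of the gene. The collagen VI chain COL6A1 had its probe set 3924402 at 3.63, 2.43 and 3.11 in HL60 with DMSO and at 7.03, 7.21 and 7.02 in THP-1, with gene means of 6.52, 6.43 and 6.66 and of 7.07, 7.01 and 7.30. The index was 3.44 ± 0.38 higher in THP-1 (limma, adjusted p = 4.5e-05). UPP1 3000961, of an enzyme that splits uridine, was 2.28 ± 0.34 higher in U937 than in HL60 (limma, adjusted p = 0.000801). MTMR11 2434188 was 2.25 higher in THP-1 than in HL60 (limma, adjusted p = 0.00763), but not called with only the arrays of these groups in the fit (limma, adjusted p = 0.0836). In all 3 of these probe sets the HL60 readings with DMSO lay under 5.17, so the sizes of these differences are uncertain.

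A single member was the rule: 415 genes held 1, 94 held 2, 34 held 3 and 17 held 4 or more. The 145 genes with at least 2 held 378 members, and in 104 of them members were neighbours by ID among the kept probe sets. Runs of 3 or more neighbours occurred in 25 genes. The largest share of a gene's kept probe sets that were members was 40%.

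TARBP1, an RNA methyltransferase, had the longest run at a 5′ end, with 6 members at places 1 to 6 of 35. They sat at very different levels, each held with PMA. Probe set 2461526 lay between 11.74 and 12.52 on all 18 arrays and 2461525 between 6.90 and 8.15, while the gene mean was 8.96, 9.01 and 8.50 in HL60 with DMSO and 7.62, 7.54 and 7.45 with PMA. PMS1, a mismatch repair protein, had members at places 1 to 4 of 17, and PSIP1, a chromatin-binding coactivator, at places 1 to 3 of 18. BCL2, the inhibitor of apoptosis, had places 1 to 3 of 20, with differences of 3.36, 1.60 and 1.68 at place 3. The thymidylate synthase gene TYMS had places 1 to 3 of 12, and the mitotic checkpoint kinase BUB1B places 1 to 3 of 29.

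Some falling genes carried their members inside. BCL11A, a zinc finger repressor of blood cells, had a run of 4 at places 10 to 13 of 20. Its probe set 2554992 read 9.39, 9.46 and 9.59 in HL60 with DMSO and 9.98, 10.09 and 9.93 with PMA, with no overlap. The gene mean was 7.65, 8.07 and 7.65 with DMSO and 5.51, 5.38 and 5.32 with PMA. POLQ, the polymerase of end joining, had 5 members at places 1, 2, 13, 14 and 31 of 43, with differences in HL60 of 3.10 to 4.15. CDK5RAP2, a centrosome protein, had 3 members at the 3′ side, places 48 to 50 of 50. The citron kinase gene CIT, needed for cytokinesis, had 4 between places 30 and 49 of 54.

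WDR27 was the only falling gene with a member that was higher by at least 1 in every line. Its probe set 2986037, place 12 of 24, read 7.01, 7.36 and 7.08 in HL60 with DMSO and 8.61, 7.84 and 8.33 with PMA. In THP-1 it read 7.43, 6.90 and 6.69 and then 8.60, 9.11 and 8.72, and in U937 7.74, 7.62 and 7.42 and then 8.79, 8.32 and 8.87. PMA arrays were higher than DMSO arrays in all 3 lines. The changes were 1.11, 1.80 and 1.07, where the gene mean changed by -1.27, -0.77 and -1.10.

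The falling genes with at least 2 members were grouped by role by hand after their values had been seen, so the counts only describe them. DNA replication and repair had 17 genes with 46 members, with median differences of 2.08, 1.62 and 1.66, and 30 of 39 members with a strand in bin 1. Mitosis, centromere and chromosome structure had 20 genes with 48 members (27 of 38 in bin 1), among them CENPE, TPX2 and SMC4. Cell cycle control had 6 genes with 13 members (6 of 6), among them FOXM1, CDC25A and WEE1. Nucleotide and one-carbon synthesis had 7 genes with 18 members (15 of 18), among them CAD, DUT and TYMS. RNA processing and ribosome biogenesis had 10 genes with 24 members (20 of 24), and chromatin and transcription 12 genes with 30 (16 of 25), among them EZH2 and DEK. The other 41 falling genes had 96 members (65 of 79).

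In the list of DNA replication and mitosis genes, 18 of 32 tested genes (56.2%) held a member, against 4.68% of all genes tested. The 4.68% is not a like background for genes that fell. In the 491 genes with a strand that were lower by at least 1 in every line, the 5′-most probe set alone was a member in 37.9%. The list's gene means had median changes of -2.82, -1.75 and -2.08. Of its 720 tested probe sets 28 were members, and the limma fit called 73 higher and 38 lower than their gene in HL60, 29 and 3 in THP-1, and 23 and 3 in U937, in the contrast that chose the members. The replicative helicase was represented by MCM2, MCM3, MCM4, MCM5 and MCM7. The MCM7 probe set 3063723 read 6.47, 6.06 and 6.56 in HL60 with DMSO and 7.01, 7 and 6.94 with PMA, where the gene mean went from 9.94, 9.71 and 9.45 to 7.27, 6.99 and 6.93. CDC45, a component of the active replicative helicase, the sliding clamp PCNA, and the polymerase subunits POLA1 and POLE each had a member at the 5′ end, with differences in HL60 of 3.49, 2.81, 2.65 and 1.35 there. In mitosis, ASPM, AURKB, BUB1B, CENPE, KIF11, KIF23, CCNA2 and TOP2A had members. The ASPM probe set 2449614, 5′-most of 34, differed by 4.38, 2.95 and 2.42. TOP2A 3756235, 5′-most of 42, followed its gene in part, as the BUB1B members did, with changes of -2.64, -1.57 and -0.92 against -4.99, -2.91 and -2.57. AURKB 3744274 lay inside its gene, at place 9 of 12, and CENPE 2780177 and POLE 3479187 near the 3′ end.

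A pair of myeloid granule proteases were lower with PMA and held members that dropped less. ELANE 3815239, of neutrophil elastase, changed by -0.43, -1.07 and -0.52 against -3.83, -2.77 and -2.95 for its gene. The 2 PRTN3 members, of proteinase 3, had their smallest differences in THP-1, 1.31 and 1.19.

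Of the 86 rising genes, those with at least 2 members were grouped by role in the same way. Secreted, surface and adhesion proteins had 9 genes with 33 members, transcription and growth control 9 genes with 23, metabolism and transport 8 genes with 24, and other functions 6 with 23. Of their members with a strand, 0 of 8, 2 of 16, 1 of 18 and 1 of 13 lay in bin 1.

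SPOCD1, a protein with a SPOC domain, held 9 members among 25 kept probe sets. Its probe set 2404776 read 2.48, 2.22 and 2.14 in HL60 with DMSO and 9.13, 9.47 and 9.15 with PMA. It read 2.72, 1.90 and 2.42 and then 9.26, 9.65 and 9.36 in THP-1, and 3.19, 3.16 and 2.30 and then 10.11, 8.25 and 10.79 in U937. No arrays overlapped, and the U937 PMA 2 array was the lowest of its group. The difference from the gene was 4.39, 4.50 and 4.08 (SE 0.31), from DMSO readings all under 5.17. Another of the 9, 2404774, rests on single arrays. It read 11.08, 6.63 and 6.10 in HL60 with PMA, and without HL60 PMA 1 its smallest difference turned from 1.25 to -0.30.

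PHLDA1, a pleckstrin-like domain protein, had its largest differences at the 3′ end. Probe set 3462832, place 10 of 11, read 2.43, 3.05 and 4.37 in HL60 with DMSO and 12.02, 11.74 and 11.73 with PMA, and differed by 4.42, 4.94 and 3.49. The matrix metalloproteinase MMP19 held 8 members of 25. Its probe set 3457279 read 2.44, 2.52 and 2.53 in HL60 with DMSO and 10.25, 10.74 and 10.62 with PMA, against gene means of 5.06, 5.17 and 5.17 and of 8.77, 9.05 and 9.07. RIN2, which acts on RAB5, had 4 members between ID places 9 and 13 of 13, with differences of 2.72, 4 and 3.25 at 3878920.

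A2M, the broad protease inhibitor of plasma, held 9 members of 46, spread from ID place 3 to 44, with gene changes of 6.70, 6.79 and 3.96. PZP 3443487, of its close relative, differed by 3.40, 3.73 and 3.47. These genes are similar in sequence, and how the array separates them was not tested. The same holds for the ferritin pseudogene FTH1P3, a falling gene with 2 members. With the median in place of the mean of the gene's probe sets, 559 of the 628 members of falling genes and 108 of the 157 members of rising genes met the rule. A2M 3443366, 3443381, 3443396 and 3443397 had smallest differences of 0.68, 0.71, 0.75 and 0.57 then.

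CSF1, the macrophage colony-stimulating factor, is known for alternative exons and held 3 neighbouring members at ID places 6 to 8 of 17. Probe set 2351089 read 3.18, 2.15 and 2.76 in HL60 with DMSO and 12.44, 12.87 and 12.38 with PMA. It read 4.09, 4.06 and 2.94 and then 7.24, 7.60 and 8.25 in THP-1, and 3.41, 1.77 and 2.93 and then 5.32, 2.60 and 6.65 in U937. HL60 and THP-1 showed no overlap, but U937 PMA 2 lay within the DMSO arrays of U937. The differences were 4.13, 2.31 and 1.43, and without U937 PMA 2 the smallest was 2.20. Fibronectin FN1, also known for alternative exons, had 1 member, 2598267, at place 49 of 50, with differences of 1.72, 2.13 and 1.62. These were the only 2 of 53 tested genes (3.77%) of the list of genes known for regulated exons or alternative promoters, a share near the 4.68% of all genes tested.

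In the list of AP-1, EGR and immediate early genes, 4 of 23 genes (17.4%) held members. Its gene means had median changes of 1.48, 1.38 and 0.98. Those of the integrin and adhesion list were 1.36, 1.15 and 1.04, and those of the surface marker list 2.21, 2.36 and 2.42. For genes that moved, the 4.68% of all genes tested is not a like background. No share among rising genes was taken, so nothing is read from the shares of these lists. ATF3 2379153 differed by 2.99, 1.80 and 2.07, and IER3 2948633 by 1.47, 1.14 and 1.61. EGR2 3291612 differed by 2.30, 2.08 and 1.92, but its smallest difference was 0.72 with the gene median, and that of EGR2 3291606 went from 1.38 to 0.22. MAFF 3945242 differed by 2.5, 1.38 and 1.33, with a smallest difference of 0.71 with the gene median and of 0.87 without U937 DMSO 3. Among integrins and adhesion genes it was 4 of 22 (18.2%), with ITGA3, ITGAM and ITGAX rising and ITGA4 falling. ITGA4 2518282, second from the 5′ end, differed by 3.39, 1.07 and 2.41, and by 0.68 in THP-1 without THP-1 PMA 1. Surface markers of monocytes and macrophages had 3 of 13 (23.1%), ITGAM, ITGAX and the complement receptor VSIG4. Protein kinase C and diacylglycerol signalling had 2 of 18 (11.1%). These were the guanine nucleotide exchange factors RASGRP2, falling, and RASGRP3, rising. Splicing regulators had 3 of 47 (6.38%), HNRNPM, SRSF10 and TRA2B, and cytokines and chemokines 1 of 13 (7.69%), CSF1.

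No member lay in the 28 tested genes of the actin cytoskeleton or the 23 of the lysosome. The same held for the marker lists of T and NK cells (3 genes tested), B cells (4), erythroid cells and megakaryocytes (5), and epithelial cells and fibroblasts (6). Only 4.68% of all genes tested held a member. At that share lists this short can hold none, so nothing is read from the absence. Of the 1006 tested probe sets of the actin list, the limma fit called 20 higher and 26 lower than their gene with PMA in HL60, 14 and 27 in THP-1, and 12 and 8 in U937. Of the 365 of the lysosome list it called 7 and 10, 1 and 8, and 1 and 4. Over all tested probe sets it called 2814 lower in HL60, 1254 in THP-1 and 841 in U937. It called 3242 (1.85%) higher in HL60, 1891 (1.08%) in THP-1 and 1319 (0.753%) in U937. Of the 793 members it called 644, 539 and 502 higher, from which nothing is read, since this contrast chose them. The counts called higher over all probe sets leaned on single arrays. THP-1 gave 1024 without THP-1 PMA 1, 1129 without THP-1 DMSO 2 and 1216 without THP-1 DMSO 1. U937 gave 725 without U937 PMA 1, 727 without U937 DMSO 2, 746 without U937 DMSO 1 and 848 without U937 PMA 2.

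The members whose genes changed most with PMA closed the range. On the falling side these were MYB, NUCB2, TOP2A, LAMP5, CDCA7 and HSPA4L, and all 6 members were the 5′-most probe set of their gene. LAMP5 3876091, of a lysosome-associated membrane protein, followed its gene only in part in THP-1 and U937, with changes of -0.45, -1.99 and -2.87 against -2.46, -3.61 and -4.36. On the rising side they were EMP1, TM4SF19, A2M, MMP7, FABP4 and HAVCR2. EMP1 3405769 changed by 9.49, 8.36 and 7.34 against 7.46, 6.37 and 5.62. The fatty acid binding protein gene FABP4 had its probe set 3142384 at 5.76, 7.61 and 6.20 against 3.49, 6.54 and 5.01. MMP7 3388678 changed by 9.64 in HL60 and 9.85 in U937 but by 3.12 in THP-1, against 7.42, 7.05 and 1.22 for its gene.

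The probe sets' own bases and positions on the genome were not used here. Their place in a gene rests on ID order, which followed RefSeq gene starts between genes with a Spearman rho of 0.898 to 1.0 (median 0.987) over 44 sets of genes of 1 chromosome and strand, 13384 genes in all. None of these sets was of chr8. Order within genes was taken to be the same.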

How the data were processed

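Values are log2 probe-set values as deposited by the authors, made per the submitters' processing notes with Affymetrix Expression Console (version not stated). How background was corrected and probes were normalized and summarised is not given in the sources used here, and no step was added to the 18 columns. The precision is limited by the number of arrays, 3 per group. Of 287329 probe sets, 261273 had exactly 1 gene symbol in the platform annotation, 9155 several and 16901 none. Of 16941 symbols 2300 were updated through RefSeq and 95 kept as older names.

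The splicing index was fitted with limma 3.58.1 in R 4.3.3, as 6 group means over all 18 arrays with 12 residual degrees of freedom. Its two-sided p-values were adjusted over the 175190 probe sets (Benjamini-Hochberg). The script was tested on simulated data. DMSO and PMA arrays of the same number deviated together within each line. Pearson r of their splicing index deviations from the group means, over probe sets, was 0.19 to 0.66 in all 9 pairs. DMSO arrays of the same number in different lines gave -0.25 to 0.65. The labels state no pairing, so the number entered only an alternative fit. Alternatives covered normalization, the level filter, the gene summary, the threshold, diffSplice, a replicate block and single arrays left out.

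Named are the 15 members with the largest smallest-of-3-lines difference, genes with 2 or more members, members in the gene lists, 4 probe sets on either side of the threshold, up to 10 called between untreated lines, and the 6 genes at each end by change of the gene mean. From the larger of these groups only examples are given. WDR27, ATAD5, PADI4, ELANE and HELLS are outside this rule and were chosen after their values were seen. The members and gene lists were chosen with earlier results of these data known. Classes, bins, roles and promoter windows were chosen after the values were seen.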

Additional observations from a re-analysis of the deposited data

How the results depend on the processing

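Counts of members were 206 at a difference of at least 1.5 and 518 (486 of them among the 793) with the level filter at the 50th percentile. They lay between 792 and 1047 with quantile normalization, centred arrays, no level filter, the gene median or the gene mean without the probe set itself, and 682 came from genes with 10 or more kept probe sets. Leaving out 1 array at a time gave 680 to 885. The share in falling genes, 79.2%, was 83.9% with the gene median, 85.1% above the 50th percentile, 75% with no filter and 75.9% without both U937 arrays numbered 2 (73.3% to 82.1% with 1 array left out). Their share in bin 1 was 75.2% with no filter (80.9% to 85.5%). These shares and the next were added after seeing the data. The share that moved less than the gene became 100% between THP-1 and HL60 with the gene median and at 1.5, and 100% between U937 and HL60 with centred arrays. With 1 array left out it was 95.2% to 100%, 96.7% to 99.2% and, between U937 and THP-1, 96.1% to 100%.

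Members called between THP-1 and HL60 fell from 43 to 15 above the 50th percentile and 27 with only the arrays compared, between U937 and HL60 from 48 to 25 with only the arrays compared and 30 without both U937 arrays numbered 2, and between U937 and THP-1 from 54 to 29 and 34 under the first pair of settings. Leaving out 1 array gave 30 to 46, 26 to 57 and 35 to 55. Probe sets called higher with PMA went from 3242 to 2155 in HL60, 1891 to 1163 in THP-1 and 1319 to 879 in U937 above the 50th percentile. They were 662 in THP-1 and 351 in U937 with only the arrays compared, and 477 in U937 without both arrays numbered 2. Leaving out 1 array gave 2527 to 3285, 1024 to 1915 and 725 to 1579. Fewer probe sets or arrays enter these fits by construction. With the replicate number as a block across lines, members called were 48, 63 and 61. With the number as a block within each line, probe sets called higher were 3782, 2320 and 1789. All these counts lay within 1.5 times the unblocked counts. The sign turned for SPOCD1 2404774, to -0.30 without HL60 PMA 1 (at most 1.83 with another array left out). Low signal limits the members of rising genes, of which 116 of 157 lay under 5.17 with DMSO.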
